A study of Mus musculus with 8 samples.

Results

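Aminoacyl-tRNA synthetases, the enzymes that load each transfer RNA with its amino acid, were described in mouse seminal vesicle, the male accessory gland whose epithelium secretes much of the seminal fluid. They were found by gene symbol (the letters ars after the letter of an amino acid, with or without a closing a, b, number or l2), which matched 36 of the 17258 genes in the table. RNA came from 8 outbred Swiss males aged 8 to 12 weeks, of which 4 received acrylamide at 25 mg/kg body weight by intraperitoneal injection on each of 5 days and 4 received vehicle (PBS), with tissue taken 72 h after the last injection, the prostate dissected off and the fluid squeezed out. Poly(A) RNA was sequenced, and the table holds 1 value per gene and group, in reads normalised by size factor (hereafter normalised reads). Because the values used here are per group, no spread between mice and no test are given, and every difference below is a difference of 2 group values.

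Each synthetase recognises 1 amino acid and the set of transfer RNAs that decode it, and its product is what the ribosome draws on. Most amino acids have a cytosolic enzyme and a separate mitochondrial enzyme, both encoded in the nucleus, and the mitochondrial genes carry symbols that end in 2. The enzymes fall into class I and class II by the fold of their catalytic domain, and several cytosolic ones sit in a multisynthetase complex. When amino acids run short or secretory stress sets in, the transcription factor ATF4 raises many cytosolic synthetase genes together with those for amino acid synthesis and uptake. Glands that secrete large amounts of protein use these enzymes heavily.

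By role, 19 members were cytosolic, 16 were mitochondrial, and Tarsl2, a further threonyl-tRNA synthetase gene that ends in 2 without the mitochondrial role of Tars2, was kept apart. Gars and Kars, the glycyl and lysyl genes, serve both compartments and were counted as cytosolic. Neither Eprs, the fused gene for glutamate and proline, nor Ears2, the mitochondrial glutamyl gene, matches the symbol rule, and both are given only beside the members. All 36 members had a mean level of at least 10 normalised reads.

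The sequences shown here are the start regions of the cytosolic members that hold an element of the ATF4 type. The element was searched as TGATGNAAN on both strands, in RefSeq windows (GRCm38.p6) from 250 bases before to 50 bases after an annotated start site. For some members this start lies inside the span of the gene. Among those shown, this holds for Aars (span from chr8:111027778) and Yars (span from chr4:129189734). A window was at hand for 26 members. The element was found in 5 of 12 cytosolic members and 0 of 13 mitochondrial members, and it was not found in Tarsl2. Among windows of all genes in the table, 2.57% held it (426 of 16593), against 3.95% of all 32851 windows. Each sequence reads 5′ to 3′ along the gene, and the capitals mark the element, which appears as its reverse complement in Aars, Gars, Iars and Tars. Aars (alanyl, chr8:111033592-111033891, plus strand, a window inside the gene) has an element 113 bases before the annotated start and another 8 bases after it.
Aars: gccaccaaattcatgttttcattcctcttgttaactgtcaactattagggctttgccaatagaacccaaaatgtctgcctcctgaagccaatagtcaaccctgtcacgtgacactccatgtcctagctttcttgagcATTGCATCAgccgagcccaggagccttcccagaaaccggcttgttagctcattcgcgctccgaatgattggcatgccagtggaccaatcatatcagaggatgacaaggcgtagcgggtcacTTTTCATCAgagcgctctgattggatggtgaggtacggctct
Gars (glycyl, chr6:55037751-55038050, plus strand) has it 31 bases before the start.
Gars: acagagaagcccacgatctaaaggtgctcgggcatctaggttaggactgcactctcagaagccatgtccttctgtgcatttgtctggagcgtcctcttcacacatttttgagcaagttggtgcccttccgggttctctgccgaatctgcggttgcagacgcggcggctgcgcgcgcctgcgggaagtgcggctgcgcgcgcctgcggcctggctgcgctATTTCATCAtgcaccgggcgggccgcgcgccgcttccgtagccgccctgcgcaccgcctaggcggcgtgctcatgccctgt
Iars (isoleucyl, chr13:49681880-49682179, plus strand) has it 6 bases after the start.
Iars: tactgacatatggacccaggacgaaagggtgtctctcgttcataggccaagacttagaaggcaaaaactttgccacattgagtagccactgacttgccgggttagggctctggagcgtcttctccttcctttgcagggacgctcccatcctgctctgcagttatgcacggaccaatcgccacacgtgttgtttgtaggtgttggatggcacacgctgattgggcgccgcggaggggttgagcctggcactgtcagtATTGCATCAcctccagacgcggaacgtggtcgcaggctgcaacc
Tars (threonyl, chr15:11399609-11399908, minus strand) has it 16 bases before the start.
Tars: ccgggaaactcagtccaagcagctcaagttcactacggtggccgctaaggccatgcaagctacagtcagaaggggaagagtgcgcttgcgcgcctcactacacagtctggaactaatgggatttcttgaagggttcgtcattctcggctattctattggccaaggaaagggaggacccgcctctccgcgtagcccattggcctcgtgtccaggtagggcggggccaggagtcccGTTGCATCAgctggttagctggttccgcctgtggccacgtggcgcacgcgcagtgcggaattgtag
Yars (tyrosyl, chr4:129189653-129189952, plus strand) has it 3 bases after the start, in the direction of the gene.
Yars: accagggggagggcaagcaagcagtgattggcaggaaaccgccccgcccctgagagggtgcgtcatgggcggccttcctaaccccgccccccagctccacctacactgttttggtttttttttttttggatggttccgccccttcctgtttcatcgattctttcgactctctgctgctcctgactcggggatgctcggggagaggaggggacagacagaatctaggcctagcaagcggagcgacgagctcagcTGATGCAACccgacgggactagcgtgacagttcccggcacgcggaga
A match describes these letters only, and binding of ATF4 was not measured.

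The first question was which synthetase genes the gland expresses most. In control tissue the tryptophanyl gene Wars (gene ID 22375, chr12:108860030-108894175 on GRCm38) and the seryl gene Sars (gene ID 20226, chr3:108424864-108445259) stood well above the others per kb of the transcript used. Their group values were 4424 and 4218 normalised reads, ranks 237 and 248 of all genes by values not divided by length. Since a long transcript yields more reads, levels of different genes are otherwise compared per kb of transcript, taking for each gene the coding transcript with the longest reading frame. Per kb, Wars had 2425 and Sars 2261 normalised reads. Both also led per kb of coding sequence, with 3066 and 2623. The glutaminyl gene Qars (gene ID 97541, chr9:108508005-108515941), an enzyme of the multisynthetase complex, came next with 1144 per kb. Per kb of the median length of a gene's coding transcripts, the same 3 genes led in another order, with 4891 for Qars, 2877 for Sars and 1601 for Wars. For Qars that median length, 655 bases, is shorter than its longest reading frame of 2325 bases, so its place in this order is uncertain. Per kb of the transcript used, the lysyl gene Kars (760), the glycyl gene Gars (731) and the asparaginyl gene Nars (660) followed Qars. By the same measure, the other 13 cytosolic genes lay between 120 for the valyl gene Vars and 400 for the arginyl gene Rars. Without a spread between mice, the order of close neighbours, such as Wars and Sars or Kars and Gars, could not be tested.

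The remaining cytosolic members were of similar level. Mars for methionine had 372 normalised reads per kb, Hars for histidine 369, Lars for leucine 327 and Tars 326. Yars had 271, Dars for aspartate 261, Aars 242, Cars for cysteine 237 and Iars 216. The α and β subunits of phenylalanyl-tRNA synthetase, which assemble in equal number, had 248 (Farsa) and 224 (Farsb). Eprs stood at 277. Class I and class II members were spread through the same range in the cytosol, with medians of 327 for 9 class I genes and 348 for 10 class II genes.

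**Figure D1:**
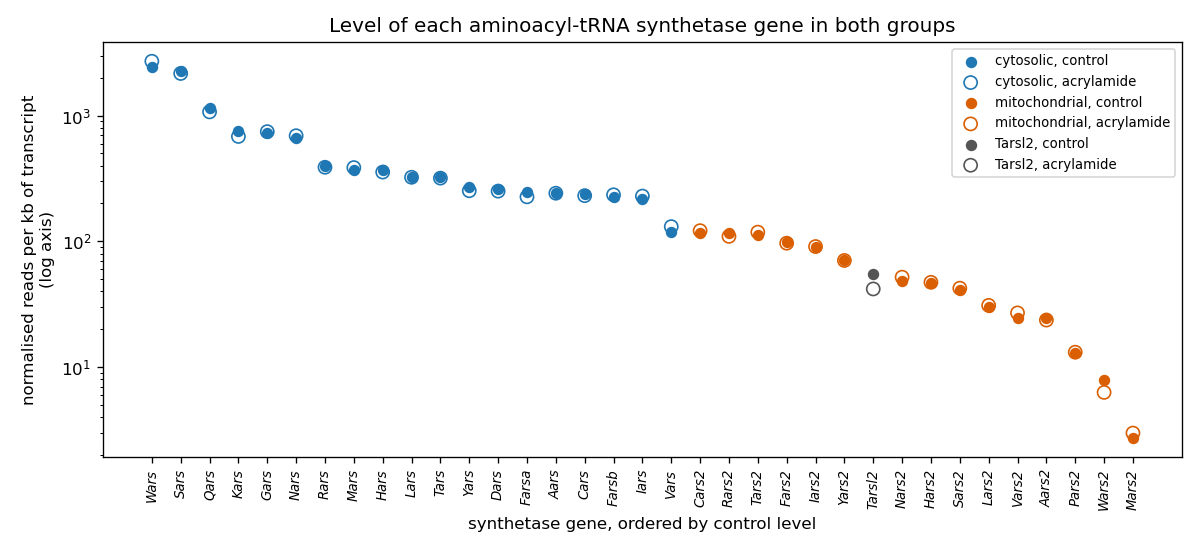
Level of each synthetase gene in control (filled) and acrylamide (open) tissue, in normalised reads per kb of transcript on a log axis, ordered by control level. Each point is 1 group value with no error, and 35 members are drawn. Wars and Sars lead at 2425 and 2261 in control, and by this measure every cytosolic gene lies above every mitochondrial gene.

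Mitochondrial members formed the lower part of the order. They ran from 2.70 normalised reads per kb for Mars2 to 117 for Cars2, with a median of 44.0 against 327 for the cytosolic members, a ratio of 7.44. Per kb of transcript the lowest cytosolic gene, Vars at 120, was still above Cars2. By the other measures of length the sets overlapped. In coding sequence Vars had 126 per kb and Iars2 162. Not divided by length, Vars had 484 and Iars2 491. Per kb of the median length of coding transcripts, Iars had 233 and Tars2 286. Rars2 (117), Tars2 (113) and Fars2 (99.1), for arginine, threonine and phenylalanine, were near the top of the mitochondrial set per kb of transcript. Iars2 had 89.7 and Yars2 70.5. A middle group held Nars2 (48.0), Hars2 (46.6), Sars2 (41.4) and Lars2 (30.0). Changes in the human counterparts of Hars2 and Lars2 are known to cause hearing loss with ovarian failure. Vars2 (24.5), Aars2 (24.4), the prolyl gene Pars2 (12.9) and Wars2 (7.91) were lower. Ears2, outside the symbol rule, had 88.6. Tarsl2 had 55.1, within the mitochondrial range.

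For 15 amino acids a cytosolic and a mitochondrial member could be set side by side, giving 16 pairs because phenylalanine has 2 cytosolic subunits. The cytosolic gene was above the mitochondrial gene in all 16 pairs, with a median ratio of 5.90 per kb in control tissue and 5.89 in acrylamide tissue. The closest pair was that for cysteine, Cars and Cars2, at a ratio of 2.02. Pairs for phenylalanine (2.26 and 2.51), isoleucine (2.41), threonine (2.89) and arginine (3.41) were also close. At the other end, Wars exceeded Wars2 by a ratio of 307. Mars exceeded Mars2 by 138, and Sars exceeded Sars2 by 54.6. The Mars2 value depends on its length, since the transcript used is 11294 bases long with 1758 coding bases. Per kb of coding sequence the ratios were 94.96 for tryptophan, 23.2 for methionine and 52.7 for serine, and all 16 pairs kept the cytosolic gene higher, the closest being isoleucine at 1.56. The tryptophan and serine pairs had the widest ratios per kb of coding sequence. By that measure Wars and Sars had ranks 1 and 2 of the 36 members, while Wars2 and Sars2 had ranks 33 and 30.

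**Figure D2:**
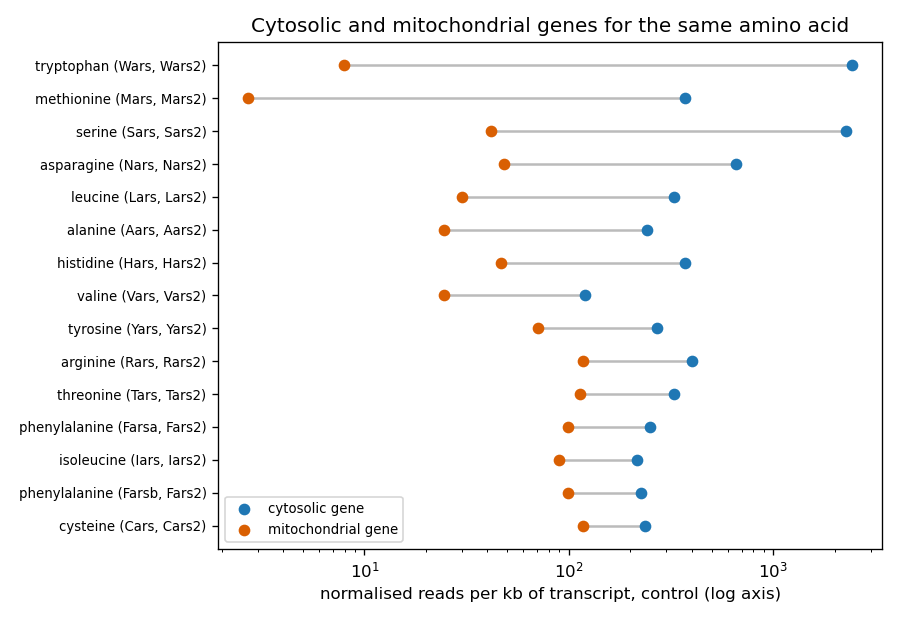
Cytosolic and mitochondrial synthetase genes for the same amino acid in control tissue, in normalised reads per kb of transcript on a log axis. Each line joins 1 of the 15 pairs drawn, and the cytosolic point is to the right in all of them, from a ratio of 2.02 for cysteine to 307 for tryptophan.

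The gland makes a few proteins in very large amounts, so the level of each cytosolic synthetase was set beside the share of its amino acid among the residues that the control transcripts encode (residues of each protein weighted by the level of its transcript per kb, over 16423 genes). Serine was the most used amino acid, at 15.1% of encoded residues, and its synthetase gene Sars was second highest. Without the 7 Svs genes, which encode the seminal vesicle secretory proteins and held 65.0% of the control total, serine made up 7.44%. Glutamine followed the same pattern, with 7.06% of residues against 4.21% without the Svs genes, and Qars was the third in level. Glycine (8.88% against 6.49%) and lysine (7.42% against 6.44%) had Gars and Kars among the next 3 genes. Nars was also among these 3, although asparagine made up only 2.56% of residues and had a larger share, 4.38%, without the Svs genes. Some common residues did not follow this order either. Leucine made up 8.09% of residues with 327 normalised reads per kb for Lars, and alanine made up 5.14% with 242 for Aars. Glutamate had 6.85% with 277 for Eprs. Valine had 5.05% and the lowest cytosolic gene, Vars.

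Tryptophan lay at the opposite corner. It was the rarest residue at 0.709%, yet Wars was the highest synthetase gene per kb of the transcript used and was among the top 3 at the other lengths. Divided by the share of the residue, Wars had 3420 normalised reads per kb for each percent, against 260 for Cars and 257 for Nars, the next in order, and 149 for Sars. Over the 18 amino acids with a cytosolic member, Spearman's rho between level and share was 0.20. Without Wars, left out after its value was seen, rho was 0.42 over 17 amino acids, and with the Svs genes left out of the residues it was 0.0052 over 18. These points share 1 group value each and 1 set of residues, so the values describe this tissue and are not tested.

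**Figure D3:**
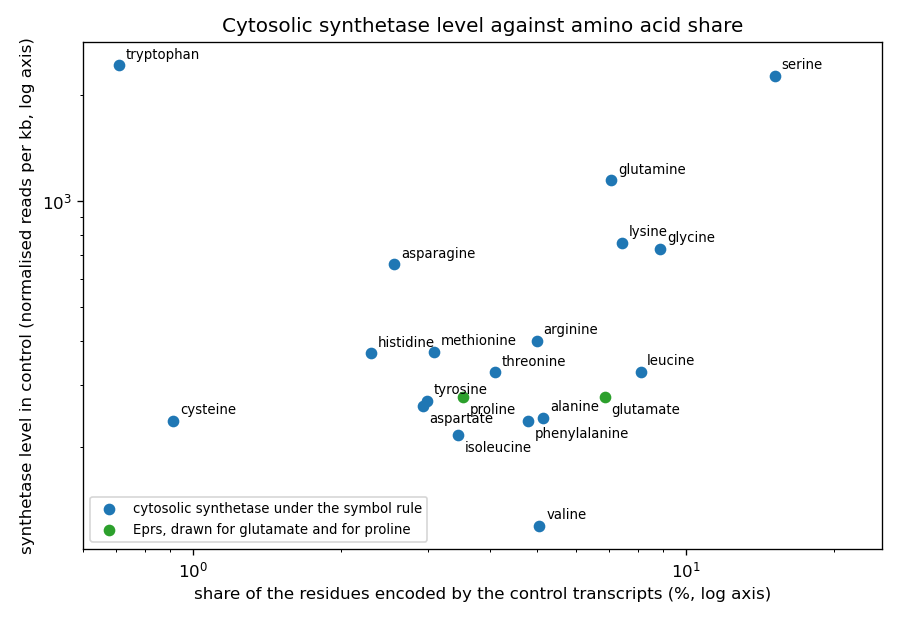
Level of each cytosolic synthetase gene in control tissue (normalised reads per kb of transcript) against the share of its amino acid among encoded residues (%), both on log axes. Blue points are members, with the mean of Farsa and Farsb for phenylalanine, and green points are Eprs, drawn for both of its amino acids. Serine, glutamine, lysine and glycine lie at the upper right, and tryptophan lies at the upper left with 0.709% of residues and 2425 normalised reads per kb.

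The comparison of acrylamide with control asked whether exposure altered the synthetase genes. No member differed by a fold of 1.5, the fold the study used, in either direction. Among the 13002 genes with a mean level of at least 10, 4.15% were higher and 0.931% lower by that fold. At a fold of 1.1, 2 members were higher (Wars and Mars2) and 3 were lower (Tarsl2, Wars2 and Kars), where 25.3% of all genes were higher and 20.4% lower. These shares depend on level. Of the 11191 genes in the level range of the members, 2.86% differed by a fold of 1.5 either way. At a fold of 1.1, 2414 of them were higher and 2176 lower. Of the 8932 genes with a level of at least 100, 1418 were higher and 1789 lower by that fold. The summed level of the 36 members was 30871.5 normalised reads in control and 30869.8 in acrylamide tissue. The median log2 ratio of acrylamide to control was -0.0023, with quartiles of -0.06 and 0.06, while the 11191 genes in the same range of levels had a median of -0.0072 and quartiles of -0.11 and 0.11. With no spread between mice, these values cannot show whether a small difference exists.

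The direction of so small a median depends on the scaling. The deposited values rest on size factors, under which the acrylamide total was 11.4% lower, mainly in the Svs genes. Scaling both groups to the total of all genes moved every log2 ratio up by 0.17, and then 22 members were higher and 2 lower by a fold of 1.1, but so were 58.4% and 4.38% of all genes.

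**Figure D4:**
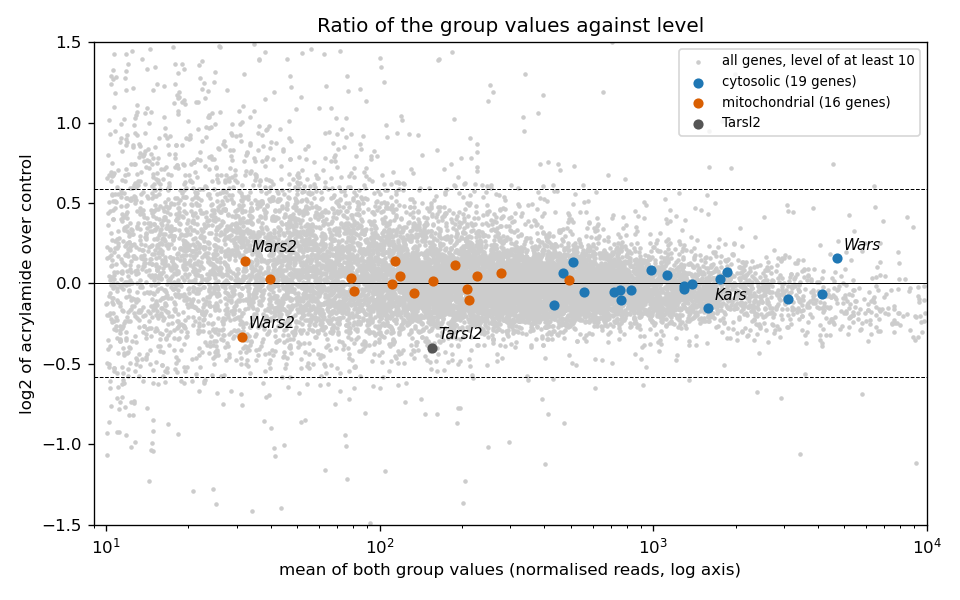
Log2 of acrylamide over control against the mean of both group values (normalised reads, log axis) for all genes with a mean level of at least 10 (grey) and for the synthetase genes (coloured). Dashed lines mark a fold of 1.5 either way, and grey points beyond the axes are not drawn. No synthetase gene lies beyond the dashed lines, and Tarsl2 is the lowest of them at -0.40.

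Tarsl2 (gene ID 272396, chr7:65644898-65692093) had the lowest log2 ratio of the members. It had 176 normalised reads in control and 133 in acrylamide tissue, a log2 ratio of -0.40, and was the single member outside the range that held 95% of genes within 2-fold of its level (-0.36 to 0.53). Since a range of 95% leaves some genes outside by construction, 1 of 36 members outside it is not above the share over all genes. Tars (gene ID 110960, chr15:11383663-11399658), the paralogue of Tarsl2, had 1306 and 1275, a log2 ratio of -0.04. The mitochondrial threonyl gene Tars2 had 271 and 284 (0.07). The 3 threonyl genes thus did not share a direction, and no stretch of 50 bases in the transcript used for Tarsl2 was found in a transcript of Tars. Tarsl2 does share 120 exon bases on the same strand with its neighbour Tm2d3, so its values may hold reads of that gene.

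The tryptophanyl genes differed most as a pair. Wars had 4424 normalised reads in control and 4936 in acrylamide tissue, the highest log2 ratio of the members at 0.16. Wars2 (gene ID 70560, chr3:99140107-99221230) had 34.9 and 27.7, a log2 ratio of -0.33. The difference of 0.49 was the largest of the 16 pairs, but both log2 ratios lay within the range of 95% of genes of like level, which was -0.36 to 0.40 for Wars and -0.52 to 1.15 for Wars2.

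Of the other highly expressed members, Sars had 4218 normalised reads in control and 4038 in acrylamide tissue (log2 ratio -0.06), and Qars had 3204 and 2999 (-0.10). Nars (1810.5 and 1899, 0.07) and Gars (1739 and 1775, 0.03) were slightly higher. Kars, whose product serves cytosol and mitochondria, had 1663 and 1495 (-0.15), the lowest log2 ratio of the cytosolic set. Of the genes for serine, glutamine, lysine and glycine, the first 3 thus had group values below control, but all 4 were above it under the scaling to the total of all genes, and 2 of 4 with the trend with transcript length subtracted.

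In the multisynthetase complex, 5 of the 7 members under the rule were below control and the median log2 ratio was -0.04. Of all genes with a level of at least 100, 56.1% were below control as deposited. The number of complex members below was 0 under the scaling to the total of all genes, where 85.4% of all genes with a level of at least 10 were above control. It was 2 under the scaling to the total without the Svs genes and 3 with the length trend subtracted. As deposited, the members below control besides Qars and Kars were Lars (1303 and 1287, -0.02), Rars (844 and 819, -0.04) and Dars (567 and 545, -0.06). Iars (955 and 1014, 0.09) and Mars (1102 and 1143, 0.05) were above it, and Eprs was level (1359 and 1358). The 3 scaffold genes that hold the complex together were also below control, of which Aimp1 and Eef1e1 stayed below it under every scaling tried and with the length trend subtracted. The scaffold values were 591 and 520 normalised reads for Aimp1 (-0.19), 335 and 326 for Aimp2 (-0.04), and 109 and 93.9 for Eef1e1 (-0.22). The 12 cytosolic members outside the complex had a median of -0.02.

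Among those outside it, Vars had 484 normalised reads in control and 530 in acrylamide tissue (0.13). The subunits of the phenylalanyl enzyme lay on either side of control, with 453 and 412 for Farsa (-0.14) and 457 and 477 for Farsb (0.06). Aars (1391 and 1388, -0.0028) was level. Cars (764 and 744, -0.04) and Hars (734 and 707, -0.05) were close to control. Yars had 788 and 735 (-0.10). For the 19 cytosolic members together, 12 were below control, beside 56.1% of all genes with a level of at least 100. The cytosolic median was -0.04 and the range was -0.15 to 0.16. The sign of that median turned under 2 of the 4 other scalings and when the trend with transcript length was subtracted.

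Mitochondrial members were nearly level with control. Of the 16, 10 were above and 6 below, with a median of 0.02, where 50.1% of all genes with a level of at least 10 were above. The number of members above was 11 to 15 under the other scalings, where the share of all genes was 50.9% to 85.4%. It was 11 with the length trend subtracted. Apart from Wars2, the widest log2 ratios were those of Mars2 (30.5 and 33.7 normalised reads, 0.14), Vars2 (108 and 119, 0.14, just under a fold of 1.1), Nars2 (181 and 196, 0.11) and Rars2 (219 and 205, -0.10). Both valyl genes, cytosolic and mitochondrial, thus had a similar log2 ratio. Closer to control, with log2 ratios between -0.05 and 0.07, were Iars2 (491 and 497), Tars2, Cars2 (223 and 231), Fars2 (211 and 205), Hars2 (156 and 158), Lars2 (117 and 121), Yars2 (111.0 and 110.9), Aars2 (81.8 and 79.2), Sars2 (77.3 and 79.2) and Pars2 (39.2 and 40.0). Ears2 had 181 and 174. The mitochondrial median was above the cytosolic median by 0.06, and the difference of cytosolic minus mitochondrial was -0.02 after the trend with length was subtracted.

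The members that are commonly listed as ATF4 targets were set beside those that are not. The 12 listed members had a median log2 ratio of 0.01, with 6 above and 6 below control. The 7 other cytosolic members had a median of -0.06 with 6 below, which became 0.01 with 3 below once the length trend was subtracted. As deposited, 56.1% of all genes with a level of at least 100 were below control. By sequence, the 5 cytosolic members with the element shown above ranged from -0.10 (Yars) to 0.09 (Iars), and the 7 that had a window without it ranged from -0.15 to 0.06, so the ranges overlapped.

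Genes of the amino acid response outside the synthetases did not share a direction either. Of 21 listed genes, 4 were higher and 6 lower by a fold of 1.1, near the shares of 25.3% and 20.4% over all genes, with a median of -0.08 that turned to 0.10 under the scaling to the total of all genes. The highest log2 ratios were those of Sesn2, a stress-induced inhibitor of mTORC1 (98.3 and 132 normalised reads, 0.42), the lipoprotein receptor gene Vldlr (170 and 221, 0.38) and Ddit4, another inhibitor of mTORC1 (760 and 969, 0.35). The lowest were those of the cystine transporter gene Slc7a11 (16.7 and 13.6, -0.29), Phgdh, which opens serine synthesis (1142 and 992, -0.20), and asparagine synthetase, Asns (3323 and 2900.5, -0.20). Of the genes named here, only Ddit4 lay outside the range of 95% of genes of like level (-0.26 to 0.30). Such a range leaves some genes out by construction.

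The remaining aminoacylation genes had a median log2 ratio of -0.08 over 10 genes, which turned to 0.10 under the scaling to the total of all genes and to 0.04 with the length trend subtracted. Sepsecs, which completes selenocysteine on its transfer RNA, had 26.5 normalised reads in control and 35.0 in acrylamide tissue (0.40), and Pstk, which acts just before it, had 128 and 120 (-0.09). Mtfmt, which formylates the mitochondrial initiator, had 78.1 and 90.8 (0.22). Mitochondria make glutaminyl-tRNA through an amidotransferase rather than a synthetase. All 3 of its subunit genes were below control, although only 1 was under the scaling to the total of all genes and 2 with the length trend subtracted, with 66.9 and 57.4 for Qrsl1 (-0.22), 89.7 and 80.4 for Gatb (-0.16) and 368 and 352 for Gatc (-0.06). The proofreading genes were Dtd1 (111 and 114, 0.04), Dtd2 (123 and 115, -0.10) and Aarsd1 (258 and 237, -0.12). Trnt1, which adds the CCA end to transfer RNAs, had 225 and 224 (-0.0069).

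The tissue held its defining markers, and their balance moved with the groups. All 6 markers of seminal vesicle epithelium were lower in acrylamide tissue (summed log2 ratio -0.26), as were Epcam, Krt8 and Krt18 (-0.18), but 2 of these 6 and 2 of these 3 were above control under the scaling to the total of all genes, where the sums were -0.08 and -0.0028. As deposited, 4 of 4 smooth muscle, 2 of 2 endothelial and 3 of 3 leukocyte markers were higher (0.31, 0.34 and 0.46), as they were under every scaling tried. Of 3 prostate markers, 2 were higher, and the summed log2 ratio was -0.13, which turned to 0.05 under the scaling to the total of all genes. In whole tissue, fewer cells of a type and less RNA per cell cannot be told apart. Transcript length also moved with the ratio, from a median log2 ratio of -0.16 in the shortest of 20 bins of genes to 0.11 in the longest. The part of either in the values of the synthetase genes was not tested. Neighbouring genes share exon sequence with some members, most with Iars2 (2034 bases on the opposite strand, with Rab3gap2) and Aars (1326 bases on the same strand, with Exosc6), and Hars and Hars2 overlap head to head on chromosome 18 by 195 bases. Whether the counting used strand is not given in the sources used here, and strand could not separate Aars from Exosc6 or Tarsl2 from Tm2d3. These values may therefore hold reads of the neighbour.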

How the data were processed

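The authors sequenced poly(A) RNA of seminal vesicle tissue from 4 control and 4 acrylamide-treated mice as pairs of 100-base reads on the DNBseq platform, and used SOAPnuke for filtering, HISAT2 for mapping (mm10) and RSEM for counting. The deposited signal columns hold 1 value per gene and group, in size-factor normalised reads from DESeq2, not divided by gene length. The depth of single libraries is not analysed here, and no error can be attached to a group value. The other columns of the table hold the authors' fold changes, log2 fold changes, p-values and adjusted p-values, and were not used.

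Log2 ratios were computed from the 2 group values without a pseudocount. Lengths came from GENCODE vM21 (the coding transcript with the longest reading frame, found for 36 of 36 members) and promoter windows from RefSeq. All genes with a mean level of at least 10 served as background. Scalings, lengths and minimum levels were varied, and the length trend came from genes with a level of at least 100 in 20 bins. Shared sequence was searched in windows of 50 bases against all GENCODE transcripts. Named genes were all members, the scaffold and other aminoacylation genes, and of the amino acid response genes the 3 highest and 3 lowest log2 ratios. Some single results are not reported here. Members and lists were chosen with earlier results of these data known. Python 3.11.15 with numpy 2.4.6, pandas 2.3.3, scipy 1.17.1 and matplotlib 3.10.9 was used.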

Additional observations from a re-analysis of the deposited data

How the results depend on the processing

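No paired analysis was possible because the columns hold groups, and no replicate could be left out. No member passed a fold of 1.5 under any of the 4 other scalings, and 2 passed the smaller fold tried (Tarsl2 at 0.758 and Wars2 at 0.795 of control). The count of members higher by a fold of 1.1 was 2 of 36 as deposited, where 25.3% of all genes were higher. It was 22 when scaled to the total of all genes (58.4% of all genes), and 6 to the total without the Svs genes (33.8%). Scaled to the median of genes above a level of 100, it was 4 (28.4%). With the length trend subtracted, an alternative added after seeing the data, it was 1. The cytosolic median turned from -0.035 to 0.139 and 0.0226 under both scalings to a total and to 0.0157 with the length trend subtracted, and the mitochondrial median moved from 0.0228 to 0.197 and 0.0807 under both scalings to a total. Both scalings to a total move all genes alike. The share of all genes past a fold of 1.5 either way was 5.08%, and became 17.3% with no minimum level and 1.39% at a minimum of 100. The cytosolic to mitochondrial ratio of 7.44 was 8.72 without division by length and 6.29 per coding length. Tarsl2 counted with the genes ending in 2, also added after seeing the data, gave 7.02. Spearman's rho of level and amino acid share, 0.20, was 0.0052 without the Svs genes, -0.0031 without the 20 most abundant genes and 0.42 without Wars, the last added after seeing the data.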

Other observations

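Wars was the highest synthetase gene and had the highest log2 ratio of them. For this reason some genes that interferon γ is known to raise, as it does WARS in human cells, were looked up after its value was seen, with Ido2 beside them. Ido1, which degrades tryptophan, had 2.62 normalised reads in control and 92.1 in acrylamide tissue. Gbp2, a guanylate-binding protein gene, had 61.0 and 145 (log2 ratio 1.253). Irf1, an interferon-responsive transcription factor gene, had 160 and 246 (0.62) and the peptide transporter gene Tap1 had 196 and 291 (0.57). Ido2 had 25.2 and 26.6 (0.08). The log2 ratio of Wars, 0.16, was smaller than that of each of these genes except Ido2, and no test over mice was run, since the values used are per group.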
